A study of Mus musculus with 12 samples.

Results

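The proteasome is the protease complex that degrades ubiquitin-tagged proteins, and its genes carry symbols beginning with Psm. Rows were taken by symbol (Psm followed by a letter from a to g and a number), which matched 49 rows, and 48 of them averaged 5 or more normalized counts across the 12 libraries. These 48 genes are described here out of 16218 rows in the table, 14906 of which were tested. Psmb11, the beta subunit of the thymus form, was the row left out. Its mean was 0.253, with values of 0.97 and 2.07 in MI+PBS replicates 2 and 3 and 0 in the other libraries, while the lowest gene kept was Psma8 with a mean of 34.4. Psmc3ip, a co-factor of meiotic recombination, matches the symbol rule but encodes no proteasome component. It is counted among the 48, passed in no comparison, and is described separately at the end.

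Hearts of 12 female wild-type mice aged 12 weeks were compared in 3 groups of 4 animals, with 1 poly-A RNA library per animal. Sham animals (replicates 2, 3, 4 and 5) had surgery without infarction. MI+PBS animals (replicates 1, 2, 3 and 5) had a myocardial infarction, made by tying off the left anterior descending artery (LAD) for good, with phosphate-buffered saline as vehicle. MI+Agrin animals (replicates 1, 3, 4 and 5) had the same ligation with agrin, an extracellular matrix proteoglycan. RNA dates from 2 weeks after infarction, and the mouse strain is not stated in the labels. Recovered depth ran from 20238512 to 22742027 reads in 11 libraries, and 15799 to 15898 genes were detected per library. Of 8 cardiomyocyte markers, 5 passed the test as lower in MI+PBS against sham and 3 in MI+Agrin against sham, and 0 passed as higher, with summed levels of 1555325 to 1821370.5 normalized counts in sham, 945723 to 1367595 in MI+PBS and 1303888 to 1488124 in MI+Agrin. The 8 leukocyte markers were all higher in MI+PBS than in sham, at 4929 to 6505 in sham, 11057 to 16238 in MI+PBS and 7838 to 12638 in MI+Agrin. Over all genes tested, 22.6% passed as higher and 21.8% as lower in MI+PBS against sham. In MI+Agrin against sham the shares were 15.4% and 13.2%. Replicate 2 of MI+PBS and replicate 1 of MI+Agrin stood apart from the rest in a principal component analysis, and results that turn on them are given with and without them. These are whole-tissue libraries, in which fewer cells of a type and less RNA per cell cannot be told apart.

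The core particle of the proteasome is a stack of alpha and beta rings, and 3 of its beta subunits, encoded by Psmb5, Psmb6 and Psmb7, cut peptides. In immune cells, and in other cells exposed to interferon-gamma, the related subunits Psmb8, Psmb9 and Psmb10 take their places to form the immunoproteasome, which is known for making peptides for MHC class I. The regulatory particle, with a ring of ATPases (Psmc genes) and non-ATPase subunits (Psmd genes), binds and unfolds ubiquitinated substrates. Activators encoded by Psme genes can cap the core instead. In cardiac muscle the proteasome is known for removing damaged contractile proteins.

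Most proteasome genes differed little between the groups, within tight limits. In MI+PBS against sham, 44.4% of the 14906 genes tested passed the threshold (adjusted p below 0.05, limma on log2 of the normalized count plus 1). Of the 48 genes, 4 passed (8.33%): Psma5 and Psmc4 were higher, against 22.6% of genes tested, and Psmb10 and Psme1 were lower, against 21.8%. Without the 2 libraries that stood apart the count was 2, Psmc4 and Psme1. The median absolute log2 fold change was 0.0754 over the 48 genes and 0.267 over all genes tested (signed medians 0.0038 and -0.011). In MI+Agrin against MI+PBS, 1.64% of genes tested passed (0.751% higher and 0.892% lower) and 0 of the 48 did, by limma, by edgeR and by DESeq2. At an unadjusted p below 0.05, 1 of 48 passed, against 2802 of the 14906 genes tested. It was Psma8, a testis-associated alpha subunit that is the lowest gene kept. In MI+Agrin against sham, 28.6% of genes tested passed (15.4% higher and 13.2% lower), and 2 of the 48 did (4.17%), Psmb9 and Psme1, both lower. Without the 2 libraries that stood apart 3 passed, Psme1 and Psmf1 lower and Psmg3 higher. The median absolute log2 fold change was 0.0411 against 0.129 for all genes in MI+Agrin against MI+PBS, and 0.0663 against 0.204 in MI+Agrin against sham. MI+PBS against sham and MI+Agrin against sham share the sham libraries, so their calls are not independent. The 31 constitutive subunits of the core and of the regulatory particle, with the low and testis-associated Psma8 left out, had 95% intervals within 0.5 log2 units of 0 in all 3 comparisons, 31 of 31 in each. The intervals of Psma8 were wider, at -0.41 to 0.54 in MI+PBS against sham, -0.97 to -0.019 in MI+Agrin against MI+PBS and -0.91 to 0.047 in MI+Agrin against sham. For the 31, the interval bounds ran from -0.29 to 0.31 in MI+PBS against sham, from -0.30 to 0.22 in MI+Agrin against MI+PBS, and from -0.34 to 0.22 in MI+Agrin against sham. Groups without overlap were seen in 6 of 48 genes in MI+PBS against sham, against 41.9% of genes tested. The counts were 0 of 48 against 9.04% in MI+Agrin against MI+PBS, and 4 of 48 against 32.4% in MI+Agrin against sham.

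**Figure D1:**
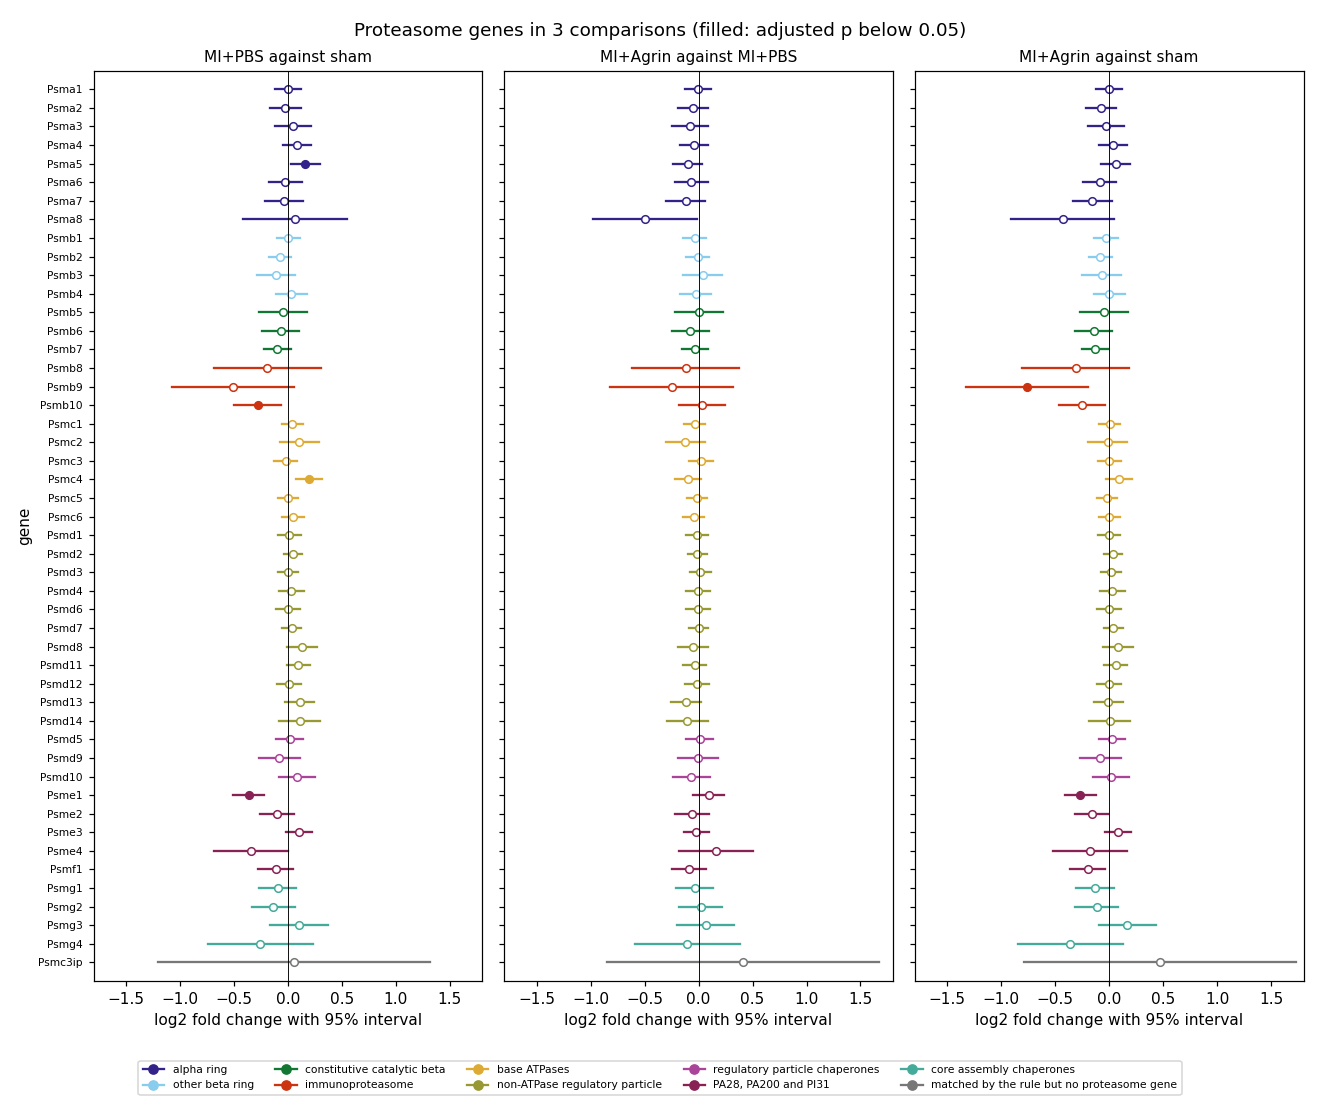
Log2 fold changes (x axis) of the 48 genes (y axis, coloured by role) in the 3 comparisons, with points for the estimates, lines for 95% intervals and filled points for adjusted p below 0.05. Most intervals cross 0, and those of Psmc3ip, Psmb9, Psmb8, Psmg4 and Psma8 are the widest.

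Among alpha ring genes (8 genes, which form the outer rings and gate the core), 1 of 8 was higher in MI+PBS, Psma5, and 0 of 8 passed in the other comparisons. Psma5 (chr3:108256926-108279974, mm10, as are all gene coordinates here) measured 410.4, 388, 411 and 404 normalized counts in sham replicates 2, 3, 4 and 5. It measured 461, 471, 432 and 441 in MI+PBS replicates 1, 2, 3 and 5, all above the sham values. MI+Agrin replicates 1, 3, 4 and 5 had 390.2, 445, 436 and 414, overlapping both other groups. The difference between MI+PBS and sham was 0.16 ± 0.06 (log2, SE, adjusted p = 0.0495), and the call was lost in 17 of 23 alternatives, at adjusted p up to 0.118, among them that without MI+PBS replicate 2 (adjusted p = 0.112). Psma5 shares 76.5% of its transcript with near-identical copies elsewhere in the genome, so its counts are uncertain. The other beta ring genes (Psmb1, Psmb2, Psmb3 and Psmb4, 4 structural subunits) had 0 of 4 past the threshold in each comparison, with log2 fold changes of -0.11 to 0.03 in MI+PBS against sham.

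In the base of the regulatory particle, 1 of 6 ATPase genes was higher in MI+PBS than in sham, Psmc4, and 0 of 6 passed in each of the other comparisons. Psmc4 (chr7:28041707-28050101), which encodes the ATPase Rpt3, measured 1589, 1521, 1541 and 1627 normalized counts in sham replicates 2, 3, 4 and 5. MI+PBS replicates 1, 2, 3 and 5 had 1773, 1900.2, 1645 and 1863, and the lowest of these lay above the highest sham value. MI+Agrin replicates 1, 3, 4 and 5 had 1593, 1793, 1645 and 1678, between and overlapping both. The difference between MI+PBS and sham was 0.19 ± 0.06 (log2, SE, adjusted p = 0.0138), and the call was kept in 23 of 23 alternatives. Of the 11 non-ATPase subunits, which include the ubiquitin receptor Psmd4 and the deubiquitinase Psmd14, 0 of 11 passed in any comparison. Their log2 fold changes in MI+PBS against sham ran from 0.0012 to 0.13, with bounds of -0.11 to 0.30. The 3 chaperones that assemble the regulatory particle (Psmd5, Psmd9 and Psmd10) and the 4 that assemble the core (Psmg1, Psmg2, Psmg3 and Psmg4) had 0 past the threshold in each comparison, with Psmg4 reaching log2 fold changes of -0.26 in MI+PBS against sham and -0.36 in MI+Agrin against sham.

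Of the 3 immunoproteasome genes, Psmb10 fell in MI+PBS and Psmb9 in MI+Agrin, each against sham, while 0 of 3 constitutive catalytic genes passed in any comparison. Psmb8 did not pass in any. Psmb8 (chr17:34197721-34201454), the counterpart of Psmb5, measured 524, 600.5, 379 and 530.0 normalized counts in sham replicates 2, 3, 4 and 5. MI+PBS replicates 1, 2, 3 and 5 had 601, 502, 333 and 369.6, and MI+Agrin replicates 1, 3, 4 and 5 had 289.8, 339, 547 and 500.4. All groups overlapped, each holding both high and low libraries. The log2 fold change was -0.19 ± 0.23 in MI+PBS against sham (adjusted p = 0.525) and -0.31 ± 0.23 in MI+Agrin against sham (adjusted p = 0.338).

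Psmb9 (chr17:34181987-34187764), the counterpart of Psmb6, measured 293, 365, 191 and 273 in sham, 294, 214, 127 and 169 in MI+PBS, and 122, 138, 207 and 194 in MI+Agrin, in the replicate order given above. MI+Agrin values lay in the lower part of the range and overlapped sham replicate 4. The log2 fold change was -0.51 ± 0.26 in MI+PBS against sham (adjusted p = 0.133) and -0.76 ± 0.26 in MI+Agrin against sham (adjusted p = 0.0459). The latter call was lost in 13 of 23 alternatives, among them edgeR (adjusted p = 0.0908), DESeq2 (adjusted p = 0.0526) and the fit without MI+Agrin replicate 1 (adjusted p = 0.109). Without MI+PBS replicate 1, Psmb9 passed in MI+PBS against sham, at -0.71 (adjusted p = 0.0366).

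Psmb10 (chr8:105935735-105938444), the counterpart of Psmb7, measured 937, 1101, 1038 and 921 in sham. MI+PBS replicate 1 had 1018, within the sham range, and replicates 2, 3 and 5 had 809.9, 704 and 778. MI+Agrin had 788, 859, 877 and 827, all under the lowest sham value. The log2 fold change was -0.28 ± 0.10 in MI+PBS against sham (adjusted p = 0.0345), and the call was lost in 9 of 23 alternatives, at adjusted p up to 0.10, among them that without MI+PBS replicate 2 (adjusted p = 0.0683). In MI+Agrin against sham it was -0.25 ± 0.10 (adjusted p = 0.0748).

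The constitutive catalytic genes measured 526, 473, 479 and 574 in sham, 470.4, 514, 449 and 553 in MI+PBS, and 409, 548, 530.3 and 507 in MI+Agrin for Psmb5. Psmb6 had 2425, 2443, 2617 and 2581 in sham, 2182, 2638, 2353 and 2445 in MI+PBS, and 2025, 2489, 2515 and 2119 in MI+Agrin. Psmb7 had 3359.9, 3359, 3398 and 3299 in sham, 2982, 3173, 3266 and 3118 in MI+PBS, and 2747, 3346, 3127 and 3069.9 in MI+Agrin. MI+PBS values of Psmb7 lay under all sham values, with a log2 fold change of -0.10 that did not pass (adjusted p = 0.182). Per kilobase of exon, sham levels were 76.7 for Psmb9, 150.4 for Psmb8 and 586 for Psmb10, against 570.4 to 1344 for the constitutive catalytic genes. These exon lengths are unions of all annotated exons. For Psmb9 the union is 3660 bases against 1352 for its longest coding transcript, while for Psmb5 both are 899. Levels per kilobase therefore compare unevenly between genes. Psmb5 shares 88.4% of its transcript with near-identical copies, and 12.1% of its exon bases with Mir686 on the same strand. Psmb8 shares 14.7% of its exon bases with Gm20496 on the other strand, and Psmb7 11.8% with Nek6 on the other strand. Reads of such regions cannot be assigned here, since the strand setting is not given.

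**Figure D2:**
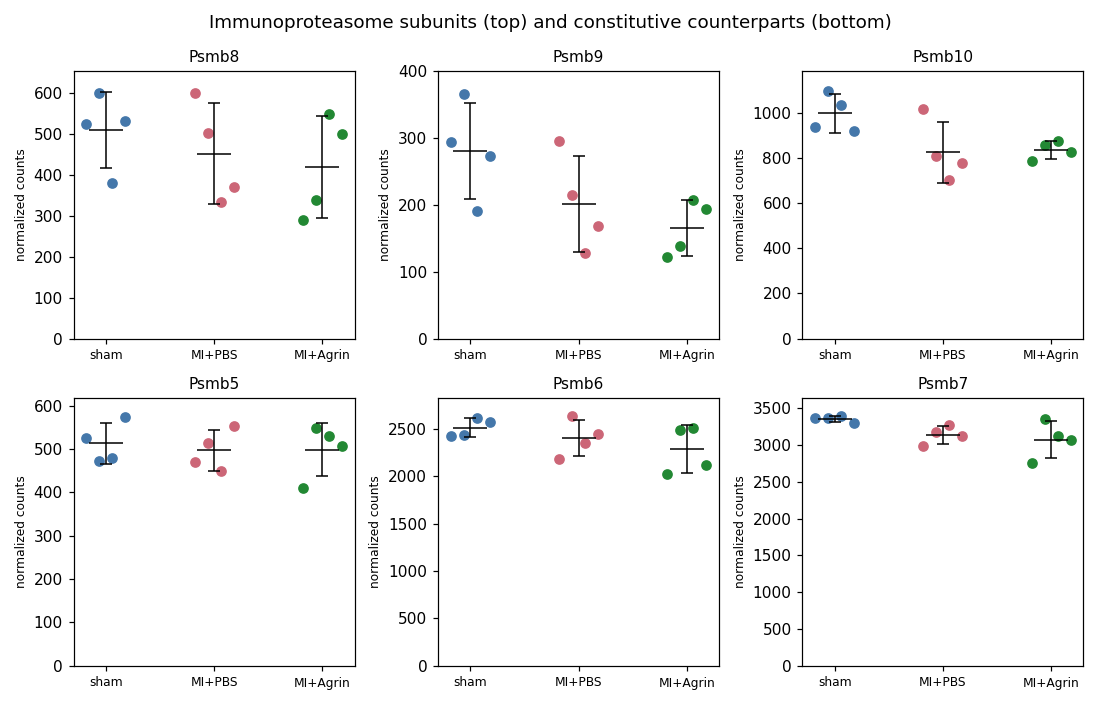
Normalized counts (y axes, from 0) of the immunoproteasome genes (top) and their constitutive counterparts (bottom) in the 4 libraries of each group (x axis), with points for libraries and lines for mean and SD. The immunoproteasome genes overlap between groups except Psmb10 in sham and MI+Agrin.

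The ratio of each immunoproteasome gene to its counterpart does not depend on library scaling. The Psmb8 to Psmb5 ratio ranged from 79.3% to 127% in sham, from 66.8% to 127.7% in MI+PBS and from 61.8% to 103% in MI+Agrin. The Psmb9 to Psmb6 ratio ranged from 7.31% to 15.0% in sham, from 5.40% to 13.5% in MI+PBS and from 5.55% to 9.14% in MI+Agrin. The Psmb10 to Psmb7 ratio ranged from 27.9% to 32.8% in sham, from 21.6% to 34.2% in MI+PBS and from 25.7% to 28.7% in MI+Agrin. The groups overlapped in all 9 tests. The difference with the smallest p was in Psmb9 to Psmb6 in MI+Agrin against sham, a log2 difference of -0.61, with 4 of 4 MI+Agrin values under the sham mean (two-sided exact permutation test, n = 4 per group, p = 0.0857, 0.514 adjusted over the 9 tests). The smallest p this design allows is 0.0286, and at least 6 of the 9 tests at that value would be needed for any to pass.

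**Figure D3:**
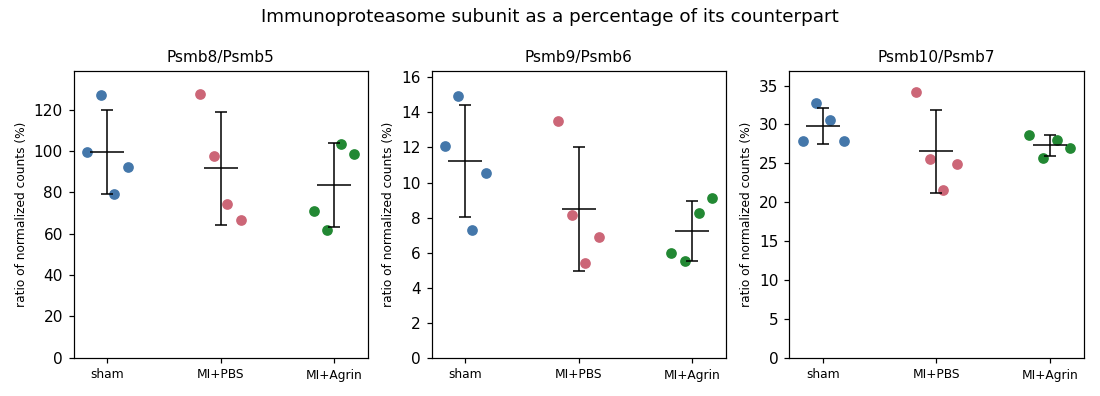
Ratio of each immunoproteasome gene to its constitutive counterpart, in percent of normalized counts (y axes, from 0), in the 4 libraries of each group (x axis), with lines for mean and SD. MI+Agrin values of Psmb9 to Psmb6 reach 9.14%, under 3 of the 4 sham values.

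The 3 immunoproteasome genes summed to 1608 to 2066.5 normalized counts in sham, 1164 to 1913.5 in MI+PBS and 1200 to 1631 in MI+Agrin, while the leukocyte marker levels given above were higher in both infarcted groups. Macrophage markers were higher in 9 of 9 cases in MI+PBS against sham, with summed levels of 9889 to 13092 in sham, 19666 to 23254 in MI+PBS and 17405 to 21808 in MI+Agrin, and neutrophil markers in 5 of 5. T and NK cell markers had 0 of 5 past the threshold, with sums of 59.2 to 93 in sham, 69.8 to 127 in MI+PBS and 65.9 to 97.8 in MI+Agrin. B cell markers had 0 of 4, with sums of 33.5 to 226 in sham, 47.5 to 126 in MI+PBS and 55.5 to 194 in MI+Agrin. Dendritic cell markers had 1 of 5, higher in MI+PBS against sham (Itgax). In that comparison 22.6% of all genes tested were higher and 21.8% lower. No T, NK, B or dendritic cell marker kept was at 0 in any library. Only markers with a mean of at least 5 were kept, which left out the T cell marker Cd3d, so near-absent markers are not covered. The part of cell composition in the immunoproteasome values was not tested.

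The promoter windows of the 5 genes that passed in any comparison (Psma5, Psmc4, Psmb10, Psmb9 and Psme1) are shown, with those of Psmb8 and Psmb5, the pair of catalytic counterparts whose windows hold a match to an interferon-gamma or NFE2L1 motif, although neither gene passed. Each is the 250 bases before the RefSeq start (RefSeq, GRCm38.p6), written 5′ to 3′ on the gene's strand. The windows of Psmb8, Psmb9 and Psme1 lie inside the GENCODE bounds of these genes. For them the bases before the GENCODE start were not searched, and matches depend on the start used. The letters TTCNNNGAA (GAS, the interferon-gamma activated site) were searched on both strands, with TGACNNNGC (ARE, a site known to bind NFE2L1 and NFE2L2), the interferon-stimulated response element (ISRE, searched as GAAA, 2 bases of any kind and GAAA) and CCAAT. Capitals mark a match to GAS in Psmb8 at position -97 (chr17:34197945-34198194, plus strand), to ARE in Psmb5 at position -47 (chr14:54617996-54618245, minus strand) and to CCAAT, as its reverse complement, in Psmb9 at position -8 (chr17:34187331-34187580, minus strand), counted back from the start. Psma5 (chr3:108256676-108256925, plus strand), Psmc4 (chr7:28050093-28050342, minus strand), Psmb10 (chr8:105938393-105938642, minus strand) and Psme1 (chr14:55578244-55578493, plus strand) held no match to these 4 motifs, which says only that the letters are not in these windows.
Psma5: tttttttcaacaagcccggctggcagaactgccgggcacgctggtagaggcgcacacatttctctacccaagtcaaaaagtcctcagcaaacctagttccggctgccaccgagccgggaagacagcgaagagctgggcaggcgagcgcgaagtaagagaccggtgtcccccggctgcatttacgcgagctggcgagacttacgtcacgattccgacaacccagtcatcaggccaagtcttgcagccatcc
Psmc4: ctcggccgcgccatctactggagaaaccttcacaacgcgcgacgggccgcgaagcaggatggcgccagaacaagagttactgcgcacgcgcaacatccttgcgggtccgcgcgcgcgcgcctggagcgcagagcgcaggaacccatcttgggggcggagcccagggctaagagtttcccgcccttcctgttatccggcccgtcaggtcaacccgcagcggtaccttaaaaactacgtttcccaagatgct
Psmb10: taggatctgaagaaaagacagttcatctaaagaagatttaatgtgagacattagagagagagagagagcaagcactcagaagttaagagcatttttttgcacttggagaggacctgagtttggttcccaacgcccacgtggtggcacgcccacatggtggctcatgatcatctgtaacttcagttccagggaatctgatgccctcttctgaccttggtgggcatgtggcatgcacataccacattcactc
Psmb9: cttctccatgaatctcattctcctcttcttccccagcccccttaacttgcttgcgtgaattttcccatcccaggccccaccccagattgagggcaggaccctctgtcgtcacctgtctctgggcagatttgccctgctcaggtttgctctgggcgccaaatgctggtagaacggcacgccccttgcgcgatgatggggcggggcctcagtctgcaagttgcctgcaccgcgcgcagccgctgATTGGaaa
Psme1: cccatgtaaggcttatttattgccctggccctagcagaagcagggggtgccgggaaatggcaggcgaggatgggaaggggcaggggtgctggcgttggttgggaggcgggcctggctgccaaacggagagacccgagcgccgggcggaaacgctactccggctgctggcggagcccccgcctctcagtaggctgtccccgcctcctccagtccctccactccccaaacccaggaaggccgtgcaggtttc
Psmb8: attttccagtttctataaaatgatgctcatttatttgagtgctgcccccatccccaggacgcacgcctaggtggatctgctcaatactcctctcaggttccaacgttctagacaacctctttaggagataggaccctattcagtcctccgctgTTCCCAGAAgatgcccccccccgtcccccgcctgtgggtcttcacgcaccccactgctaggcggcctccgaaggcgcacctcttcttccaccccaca
Psmb5: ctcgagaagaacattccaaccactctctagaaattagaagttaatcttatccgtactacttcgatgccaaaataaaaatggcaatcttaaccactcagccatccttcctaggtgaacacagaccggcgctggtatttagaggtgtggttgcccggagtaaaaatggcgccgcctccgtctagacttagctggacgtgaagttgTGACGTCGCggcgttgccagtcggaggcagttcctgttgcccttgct
Over all 32851 promoter windows of that length, GAS was found in 7.02%, ARE in 10.2%, ISRE in 2.98% and CCAAT in 33.8%. Of 43 windows of 40 matched genes among the 48, GAS was in 2 (Psmb8 and Psmg1), ARE in 5 (Psmb5, Psmb6, Psmc6, Psmd12 and Psmd9), ISRE in 3 (Psmb3, Psmd4 and Psmd9) and CCAAT in 14, Psmc3ip among them. A match is a description of letters, not of binding.

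The values of Psmb8 lay in 2 ranges that each held libraries of all 3 groups. This pattern was looked at after its values were seen, and was read against 13 genes of the MHC class I pathway and interferon-gamma response and 4 proteasome genes. The lower range, 289.8 to 379 normalized counts, held 5 libraries: sham replicate 4, MI+PBS replicates 3 and 5, and MI+Agrin replicates 1 and 3. The other 7 libraries had 500.4 to 601. The gap between the ranges was 0.40 on the log2 scale. The widest gaps of other members were 1.36 for Psmc3ip, 0.43 for Psme4, and 0.35 for both Psma8 and Psmb9, so a gap of this size was not particular to Psmb8. In 4 of the 17 genes the values in these 5 and 7 libraries did not overlap, against 0.282% of the 14905 genes tested other than Psmb8. This is a description with no test, since the ranges were read from Psmb8 and the genes were looked at with results known. B2m, the light chain of MHC class I, ran from 4846 to 6378 in the 5 libraries and from 7769.5 to 11909.6 in the 7. Nlrc5, the MHC class I transactivator, ran from 121 to 199 and from 250.3 to 364. Tap1, which carries peptides into the endoplasmic reticulum and whose exons overlap those of Psmb9, ran from 243 to 367 and from 466 to 599.6. Psmb9 ran from 122 to 191 and from 194 to 365.

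Psmb10 overlapped between the 5 and the 7 libraries, at 704 to 1038 and 809.9 to 1101, and so did Psme1, at 2009.7 to 2799 and 1974 to 2757. Because the libraries fell into separate ranges, correlations were computed within the 7 upper libraries only, and the 5 lower ones were too few. These 7 were picked by the values of Psmb8 itself and come from all 3 groups. The permutations took no account of group, and the genes were looked at with results known. The p-values below are therefore descriptive and cannot establish a relation. There the r with Psmb8 was 0.918 for Nlrc5 (exact permutation p = 0.0111, adjusted over 17 relations 0.0944, Spearman rho = 0.821, exact permutation p = 0.0341, adjusted 0.193). For Psmb10 it was 0.91 (exact permutation p = 0.00754, adjusted 0.0944, rho = 0.786, exact permutation p = 0.048, adjusted 0.204). For B2m it was 0.811 (exact permutation p = 0.0286, adjusted 0.0967, rho = 0.714, exact permutation p = 0.0881, adjusted 0.214). After adjustment 0 of 17 relations passed. Without the 2 libraries farthest from the median (sham replicate 3 and MI+PBS replicate 1), r was 0.451 for Nlrc5, 0.661 for Psmb10 and 0.462 for B2m. For Tap1 r went from 0.866 to -0.186 and for Psmb9 from 0.739 to 0.315. The relations within the upper range rest on those 2 libraries.

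**Figure D4:**
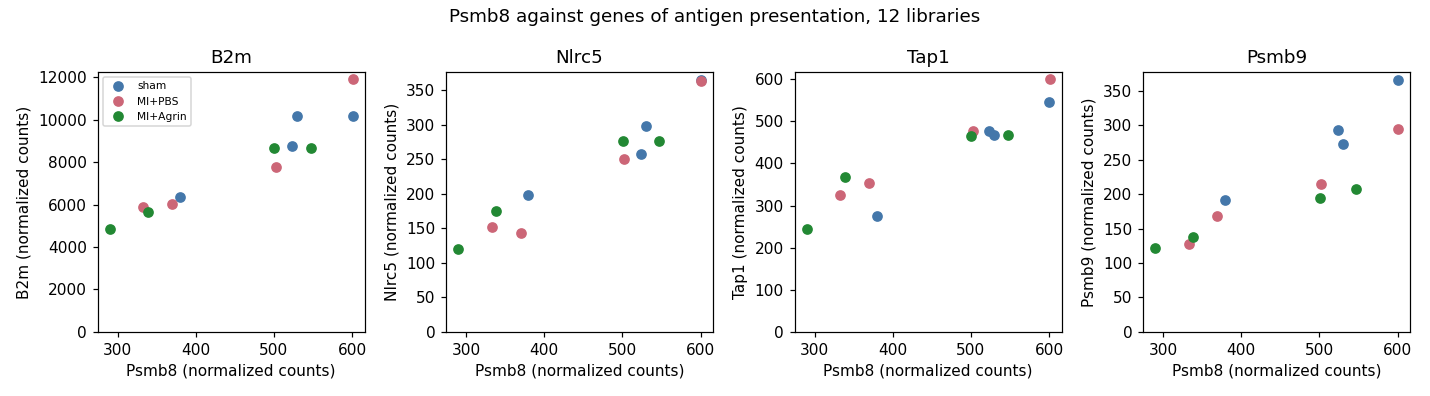
Normalized counts of B2m, Nlrc5, Tap1 and Psmb9 (y axes, from 0) against Psmb8 (x axis, normalized counts, not from 0) in the 12 libraries, coloured by group. The 5 libraries with Psmb8 at 379 or less have lower values of all 4 genes than the 7 with 500.4 or more, and both sets hold libraries of all 3 groups.

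Of the 5 activator and inhibitor genes, 1 was lower in MI+PBS and in MI+Agrin than in sham, Psme1, and 0 were higher. Psme1 (chr14:55578123-55581529), the alpha subunit of the PA28 activator induced by interferon-gamma, measured 2639, 2757, 2799 and 2686 in sham. MI+PBS replicates 1, 2, 3 and 5 had 2455, 1974, 2051 and 2009.7, and MI+Agrin replicates 1, 3, 4 and 5 had 2270.1, 2295, 2125 and 2350.4. Every value of both infarcted groups lay under every sham value. The log2 fold change was -0.36 ± 0.07 in MI+PBS against sham (adjusted p = 0.000813) and -0.27 ± 0.07 in MI+Agrin against sham (adjusted p = 0.00998), and both calls were kept in 23 of 23 alternatives. In MI+Agrin against MI+PBS it was 0.10 ± 0.07 (adjusted p = 0.449). Psme2, its partner subunit, had 608.5, 587, 609.7 and 609.8 in sham, 545, 611, 543 and 552 in MI+PBS, and 501, 519, 621 and 525 in MI+Agrin, and did not pass in any comparison. Psme2 shares 82.5% of its transcript with Psme2b, so its counts are uncertain. Psme3, the nuclear PA28 gamma, ran from 1512 to 1817 in sham, from 1757 to 1813 in MI+PBS and from 1711 to 1815 in MI+Agrin. Psme4, which encodes PA200, had 10459.7, 7150.2, 7324 and 10558 in sham, 7609, 5089, 7732 and 7440.4 in MI+PBS, and 6862, 8581, 7412 and 8086 in MI+Agrin. The log2 fold change of Psme4 in MI+PBS against sham was -0.34 ± 0.16 (adjusted p = 0.0957), and the sham values fell into a lower and a higher pair. Psmf1, the inhibitor PI31, had 642, 642, 620.3 and 645 in sham, all above MI+PBS at 586, 597, 579.8 and 592 and MI+Agrin at 617, 590.3, 549 and 473. Its log2 fold change was -0.11 in MI+PBS against sham (adjusted p = 0.225) and -0.20 ± 0.07 in MI+Agrin against sham (adjusted p = 0.0572).

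**Figure D5:**
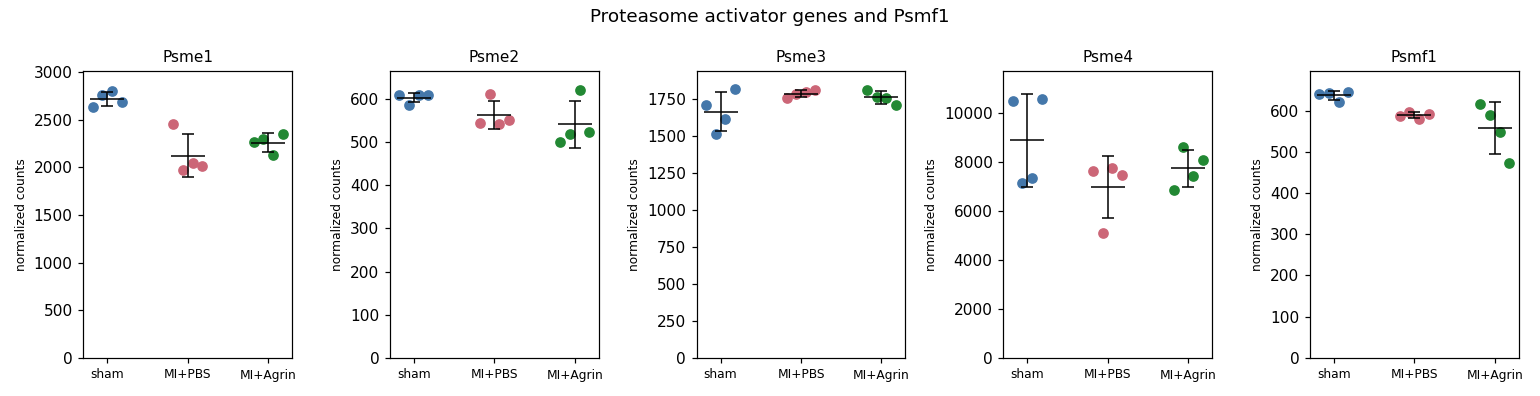
Normalized counts (y axes, from 0) of Psme1, Psme2, Psme3, Psme4 and Psmf1 in the 4 libraries of each group (x axis), with lines for mean and SD. Psme1 lies at 2639 or more in sham and at 2455 or less in both infarcted groups.

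Genes that act with the proteasome but lie outside the symbol rule were read from 4 lists. Their counts stand beside the shares of all genes tested that passed. These were 44.4% in MI+PBS against sham (22.6% higher and 21.8% lower), 1.64% in MI+Agrin against MI+PBS and 28.6% in MI+Agrin against sham. Of 9 other subunits and bound factors, 1 fell after infarction with PBS and 0 rose, AI314180 (Ecpas, a proteasome-binding scaffold), at -0.25 ± 0.07 (adjusted p = 0.0152). Of 7 genes that control proteasome transcription, 3 rose and 1 fell in the same comparison. Nfe2l1, the factor known to raise proteasome genes when the proteasome is impaired, was lower at -0.26 ± 0.09 (adjusted p = 0.025). Ddi2, the protease that activates NFE2L1, was higher at 0.26 ± 0.08 (adjusted p = 0.0244), and the small Maf partners Maff and Mafk were higher at 1.33 ± 0.12 (adjusted p = 1.71e-05) and 0.43 ± 0.08 (adjusted p = 0.0012). Maff was the 1 gene of the 7 that passed in MI+Agrin against MI+PBS, lower at -0.66 ± 0.12 (adjusted p = 0.0122), and it was higher in MI+Agrin than in sham, at 0.67 (adjusted p = 0.00172). Mean Maff levels were 189 ± 20.2 in sham, 478 ± 60.4 in MI+PBS and 302 ± 38.0 in MI+Agrin (normalized counts, SD, n = 4). Of 15 ubiquitin, shuttle factor and Vcp genes, 3 rose and 1 fell between sham and MI+PBS. Among them the shuttle factor Rad23b, which carries ubiquitinated proteins to the proteasome, was higher at 0.16 ± 0.04 (adjusted p = 0.00528). Of 13 genes of the MHC class I pathway and interferon-gamma response, 3 rose and 1 fell between sham and MI+PBS. The interferon-responsive transcription factor Irf8, which leukocytes express, was higher at 0.56 ± 0.14 (adjusted p = 0.00518), beside the leukocyte markers given above. The endoplasmic reticulum chaperones Calr and Pdia3 were higher at 0.68 ± 0.08 and 0.81 ± 0.09, and the peptide transporter Tap2 was lower at -0.32 ± 0.12 (adjusted p = 0.0439). Calr and Pdia3 serve folding of many proteins besides MHC class I. In MI+Agrin against sham, 3 were higher (Irf8, Calr and Pdia3) and 2 lower, the lower ones being Tap2 at -0.41 ± 0.12 (adjusted p = 0.0225) and Erap1, which trims peptides, at -0.25 ± 0.07 (adjusted p = 0.0271).

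Among the 25 constitutive subunits with no near-identical copy, sham levels per kilobase of exon ran from 449 to 2002, with a median of 758. The 6 with a copy (the transcripts of Psma3, Psma5, Psmb3, Psmb5, Psmc1 and Psmd11) ran from 113 to 1232, with a median of 300.3. Copies were sought at 97% identity over at least 61 bases, the read length. Exon lengths here too are unions of all annotated exons. Whether reads were lost to copies was not tested.

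Psmc3ip, named here after its values were seen, had values in 2 separate ranges. It measured 39.4, 188, 59.2 and 66 in sham, 209, 66.9, 49.6 and 49.3 in MI+PBS, and 57.8, 196, 55.4 and 173 in MI+Agrin. The 4 libraries at 173 or more lay in all 3 groups, and the gap to the other 8 was 1.36 on the log2 scale, against 0.43 for Psme4, the next widest. Exons of Psmc3ip share 21.2% of their bases with Mlx on the other strand, and Mlx ranged from 480 to 594 in all 12 libraries. Mlx was at 562 to 580.3 in the 4 libraries high in Psmc3ip. In the other 8 it was at 480 to 548 in all but MI+Agrin replicate 4, which had 594. Reads of these 2 genes cannot be told apart where they overlap, and the part of this in the values of Psmc3ip was not tested.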

How the data were processed

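Poly-A RNA of 12 mouse hearts was sequenced as 61 base single reads on a HiSeq 2500. The deposited table gives a signal per gene and library, which the file headers call normalized counts. The submitters' processing notes name STAR 2.4.2a, DESeq2 1.10.1, cutadapt, HTSeq and the mm10 build. Annotation, strand setting and each tool's role were not stated in them. The series' design text also lists a WT MI group, not analysed here. Whole reads were recovered for 11 libraries (at least 99.99% of values within 0.0055 of a whole read). Sham replicate 2, whose step lay too near 1, was left out of edgeR 4.0.16 and DESeq2 1.42.0. Genes with a mean of at least 5 were tested with limma 3.58.1 (R 4.3.3, intensity trend, pseudocount 1, all 12 libraries in 3 group means), with Benjamini-Hochberg adjustment over 14906 genes at 0.05. Fold changes are on the log2(value + 1) scale, and understate those of low genes. Adjusted p-values of genes are limma's where no other tool is given. They weigh a group difference against the spread between animals within groups, pooled over the groups and moderated across genes. Ratios used two-sided exact permutation tests over 70 assignments, adjusted over 9 tests. Correlations used all 5040 exact permutations of 7 libraries, without regard to group. Members and lists were chosen with earlier results of these data known. Every gene of the symbol rule is accounted for, with values in every library for catalytic genes, activators and called genes, and up to 4 genes with the smallest p from each other list. Psmf1, Psmc3ip and the relations of Psmb8 were chosen after values were seen. Coordinates (mm10) are from GENCODE M21, by symbol, and copies were found with blastn 2.17.0. Single values of a few list genes are left out here. Scripts were tested on simulated counts. Alternatives were pseudocounts 0.5 and 5, no filter or a mean of 50, TMM rescaling, no trend, edgeR, DESeq2, only the 8 libraries of both groups, a replicate block, and leaving out libraries.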

Additional observations from a re-analysis of the deposited data

Results flagged for a closer look

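In 10 of 153 sets of 4 libraries examined, 1 value stood far from the other libraries of its group, where chance flags about 5% of sets. In sham, Psma1 was low in replicate 4 (2279 normalized counts against 2570 to 2624 in the others), Psme2 was low in replicate 3 (587 against 608.5 to 609.8) and Psmf1 was low in replicate 4 (620.3 against 642 to 645). In MI+PBS replicate 2, Psma2 was high (2021 against 1780.4 to 1799), Psme2 was high (611 against 543 to 552) and Psme4 was low (5089 against 7440.4 to 7732). In MI+PBS replicate 1, Psme1 was high (2455 against 1974 to 2051) and Psmc3ip was high (209 against 49.3 to 66.9). In MI+Agrin replicate 1, Psmd14 was low (1134 against 1302 to 1331) and Psmd8 was low (2268 against 2495 to 2523).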

How the results depend on the processing

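The 3 counts of called proteasome genes were 4 (MI+PBS against sham), 0 and 2 (MI+Agrin against sham). For MI+PBS against sham the count was 2 with only the 8 libraries of both groups, 2 with the replicate block and 2 without MI+PBS replicate 2 and MI+Agrin replicate 1, and 2 to 4 when each library was left out. For MI+Agrin against sham it was 1 with limma without trend, 1 by edgeR, 1 by DESeq2, 1 with the replicate block, 3 with only the 8 libraries of both groups (Psmb10 gained), and 1 to 4 when each library was left out (Psmb10 gained without MI+PBS replicate 1, at 3). MI+Agrin against MI+PBS gave 0 under each alternative run. Correlations of deviations from the group means were -0.285 to 0.121 between same-numbered libraries and -0.223 to 0.302 between differently numbered ones. The labels do not say whether equal numbers mark anything shared, and so few correlations cannot settle it. The replicate block is given here only. In MI+Agrin against MI+PBS, where neither gene passed, Psmb10 turned to -0.0030 with the replicate block and to -0.043 without MI+PBS replicate 3 (leaving out each library gave -0.04 to 0.13). Psmb8 turned to 0.034 without MI+PBS replicate 1, 0.044 without MI+Agrin replicate 1 and 0.11 without MI+PBS replicate 2 and MI+Agrin replicate 1, with -0.26 to 0.04 when each library was left out. The cause was not tested. Of the other values of single genes, 275 kept direction and side of the threshold, 39 fell back over it and 3 passed it. Counted over the members without a near-identical copy, an alternative chosen after seeing the data, 3 passed in MI+PBS against sham. Depth limits low genes such as Psma8, with a mean of 34.4 normalized counts.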
